A study of Mus musculus with 6 samples.

Results

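DNA replication and mitosis genes were examined in spinal cord RNA of Sox2 cKO and control (Ctrl) mice. They are 40 textbook genes of S phase and cell division, chosen by name, though earlier results of these data were known by then. All 40 were found by Ensembl identifier among the 35275 genes of the deposited tables. Poly(A) RNA came from the whole cord of 3 Sox2 cKO mice, labelled mGfap-Cre:Sox2fl/fl, and of 3 Ctrl mice, labelled mGfap-Cre:Sox2+/+, all of strain C57BL/6. By these labels both groups carry the Cre, which is driven by the mouse Gfap promoter and deletes the floxed stem cell factor Sox2 in astrocytes. The methods instead describe the controls as Sox2fl/fl littermates, and the design text allows either kind. The labels give the age as postnatal day 90 in one field and 80 in another, and the RNA integrity as above 6.8, a minimum that the methods set higher. Libraries 2, 4 and 6 are Ctrl and libraries 1, 3 and 5 are Sox2 cKO. Since whole cord was sequenced, fewer cells of a type and less RNA per cell cannot be told apart in any value given here.

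To copy its DNA, a cell first loads the Mcm2 to Mcm7 ring onto replication origins with the help of Cdc6 and Cdt1, and then turns it into an active helicase with Cdc45 and the GINS complex. D-type cyclins start the cycle with Cdk4 or Cdk6, E-type cyclins drive entry into S phase, and A-type and B-type cyclins act with Cdk1 up to mitosis. Mitotic kinases, the spindle checkpoint and kinetochore proteins then separate the chromosomes. Most neurons and mature glia of the adult cord do not divide, while oligodendrocyte precursors are its main dividing cells. Several of these proteins also have roles outside the cycle, Pcna and the D-type cyclins among them.

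Reads counted on genes ranged from 21507911 to 28392184 per library, and the ranges of both groups overlapped. Sox2 itself was at 19.9, 14.8 and 29.5 CPM (counts scaled to the library total, with TMM normalization) in Ctrl libraries 2, 4 and 6, against 3.16, 2.69 and 2.98 CPM in Sox2 cKO libraries 1, 3 and 5. Its log2 fold change was -2.86 (SE 0.24, edgeR, adjusted p = 0.000956). The tissue label matched its markers, since the summed level of 8 neuron genes was 6778 to 7130 CPM and that of 7 oligodendrocyte genes 31830 to 35600 CPM over the 6 libraries. Of 16137 genes kept for edgeR after removal of low counts, 3970 had an adjusted p under 0.05, or 24.6%, with 2008 lower and 1962 higher in Sox2 cKO. On the authors' FPKM scale, without TMM, limma split its calls differently, with 915 lower and 2670 higher.

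The 40 genes were expressed at low levels in the adult cord, and the mitotic ones lowest. Each had at least 1 count in every library. By mean FPKM over the 6 libraries (reads scaled by gene length and library total), 6 genes were at 5 or more, 11 between 1 and 5, and 23 under 1. The highest was Pcna, the sliding clamp of the replication fork, at 27.8 FPKM, followed by the D-type cyclin Ccnd1 at 11.9, the E-type cyclin Ccne1 at 6.98, Ccnd3 at 6.52, Rrm1 at 6.40 and Ccnd2 at 5.81. The 11 helicase and licensing genes ranged from 0.126 FPKM (Cdc6) to 4.20 FPKM (Mcm7). The 13 mitotic genes ranged from 0.0732 FPKM (Bub1) to 1.38 FPKM (Nusap1). Many of these values rest on few reads, since 20 genes had a mean count under 50.

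**Figure D1:**
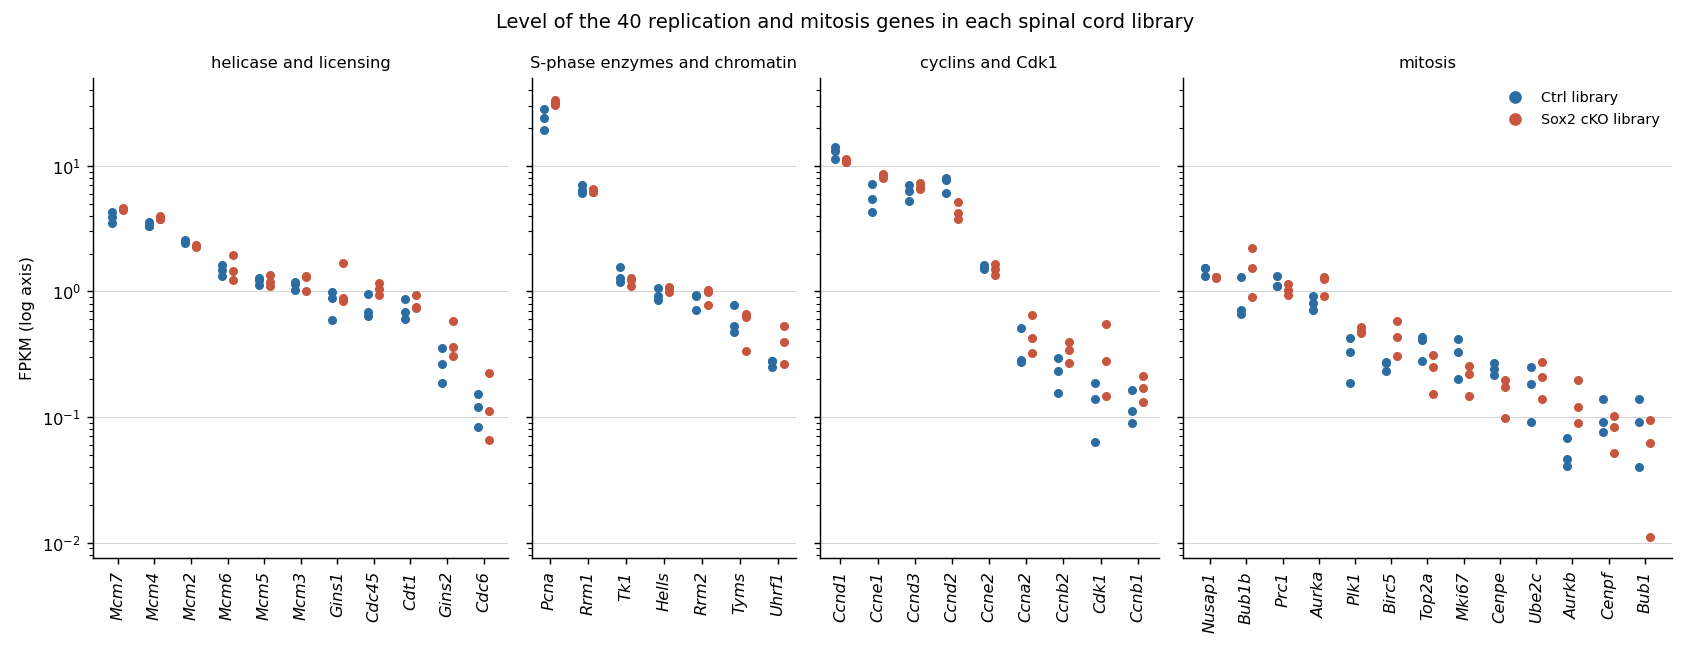
FPKM of the 40 genes in each library (log axis), by role and in order of mean level, with 3 Ctrl and 3 Sox2 cKO libraries per gene. Pcna lies highest at 27.8 FPKM on average, and 10 of the 13 mitotic genes lie under 1 FPKM on average.

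The letters of the promoters were counted by role. RefSeq promoter windows on GRCm38.p6, from 250 bases before to 50 after each transcription start, were found for 32 of the 40 genes, and not for Mcm4, Gins1, Gins2, Ccnd1, Ccnd2, Ccne2, Ccna2 and Aurkb. The E2F letters TTTCCCG or TTTGGCG or TTTCGCG, on either strand, were in the windows of 6 of 8 helicase and licensing genes, 2 of 7 S-phase genes, 1 of 5 cyclin and Cdk1 genes and 2 of 12 mitotic genes, against 6.38% of all genes with a window. The letters TTTGAA or TTCGAA of the cell cycle homology region (CHR), through which the DREAM complex acts on mitotic genes, were in 9 of 12 mitotic genes, 3 of 8 helicase and licensing genes, 2 of 5 cyclin and Cdk1 genes and 0 of 7 S-phase genes, against 21.7% of all genes. CCAAT, the letters of the NF-Y box, was in 24 of the 32 genes, against 41.1% of all genes. CAAAG, the core letters of SOX factors, was in 17 of the 32, against 57.4%. These counts describe letters, not bound sites, and the difference between roles was not tested. The 150 bases before the start are shown for a licensing gene, for Cdk1 and for the mitotic genes Mki67 and Top2a, 5′ to 3′ on the gene's strand, with E2F and CHR letters on either strand in capitals. All 4 lie on the minus strand of GRCm38.p6, Mcm6 at chr1:128359706-128359855, Cdk1 at chr10:69352913-69353062, Mki67 at chr7:135716380-135716529 and Top2a at chr11:99024190-99024339.
Mcm6: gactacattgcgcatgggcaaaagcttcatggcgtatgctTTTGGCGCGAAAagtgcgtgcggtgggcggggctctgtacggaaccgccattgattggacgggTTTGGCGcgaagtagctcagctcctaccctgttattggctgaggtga
Cdk1: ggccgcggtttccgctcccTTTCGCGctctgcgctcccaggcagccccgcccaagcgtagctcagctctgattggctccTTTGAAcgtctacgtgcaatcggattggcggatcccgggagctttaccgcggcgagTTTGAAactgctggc
Mki67: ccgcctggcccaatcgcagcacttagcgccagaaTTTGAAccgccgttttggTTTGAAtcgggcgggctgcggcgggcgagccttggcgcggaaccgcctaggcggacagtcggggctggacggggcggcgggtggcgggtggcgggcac
Top2a: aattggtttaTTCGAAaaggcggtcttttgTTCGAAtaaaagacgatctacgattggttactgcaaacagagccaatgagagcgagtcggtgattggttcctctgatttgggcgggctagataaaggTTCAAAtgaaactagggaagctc
Mcm6 holds E2F letters and no CHR letters here, Cdk1 holds both, and Mki67 and Top2a hold CHR letters alone.

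The D-type cyclins Ccnd1 and Ccnd2 fell in Sox2 cKO cord and the remaining replication and mitosis genes did not pass the test. Ccnd2 had a log2 fold change of -0.81 and Ccnd1 of -0.34. Of the 40 genes, 37 passed the filter on low counts, and Aurkb, Bub1 and Ccnb1 did not. In the edgeR test, 2 of the 37 had an adjusted p under 0.05, both lower, against 24.6% of all genes tested and 12.4% lower. At an unadjusted p under 0.05 there were 5 lower and 3 higher, that is 8 of 37 against 39.6% of all genes. With DESeq2, 4 of the 37 passed, Ccnd1 and Ccnd2 lower and Ccne1 and Pcna higher, against 27.3% of all genes. Without a filter 4 of 40 passed, 2 in each direction, against 8.55% of all genes lower and 8.62% higher, and with upper quartile scaling 4 of 37, against 10.2% lower and 14.3% higher. The length correction left 2 of 37, both lower, against 6.99% lower. On log2 FPKM, 3 of 24 passed with either pseudocount, Ccnd2 lower and Ccne1 and Pcna higher. Of all genes 6.2% were lower and 18.1% higher with a pseudocount of 1, and 6.07% and 17.7% with 0.1. DESeq2 set no adjusted p for Cdc6, Ccnb2, Cdk1 and Ube2c. Groups were apart in CPM, with no overlap, for 12 of the 37, or 32.4%, against 44.7% of all genes tested. The median log2 fold change of the 37 was 0.042, with 15 below and 22 above 0, beside 0.018 for all genes tested.

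Intervals were wider for the genes with fewer counts. The 95% interval of the log2 fold change reached a median of 0.344 to either side over the 20 genes with a mean count of 50 or more, and 0.739 over the 17 tested genes below it. For 16 of the 37 the interval reached past 1 to either side on the log2 scale. Single libraries also decided calls, since edgeR gave 0 of 37 genes without Ctrl library 4 and 0 of 38 without Sox2 cKO library 1, with 5 each at an unadjusted p under 0.05, but 7 of 38 without Ctrl library 2. Over all genes the same fits gave 26, 8 and 6119 calls.

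**Figure D2:**
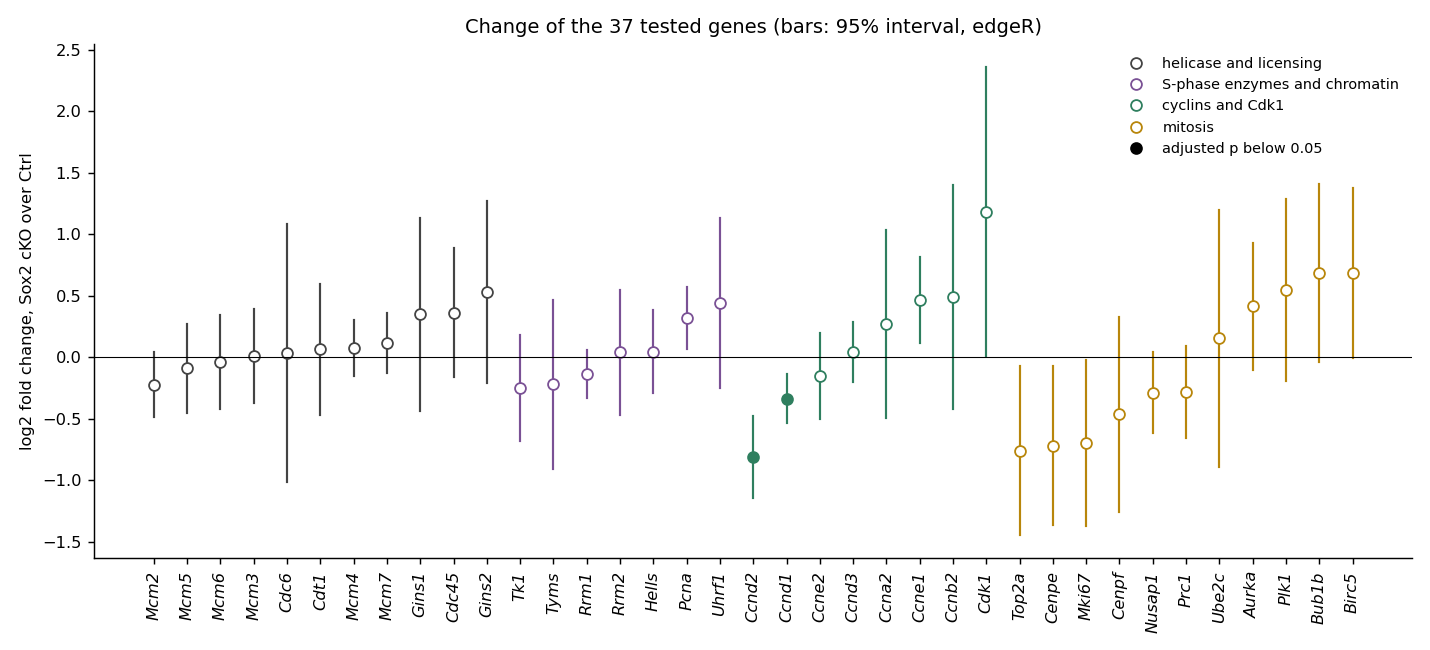
Log2 fold change, Sox2 cKO over Ctrl, of the 37 tested genes by role, with the 95% interval of the edgeR fit (unadjusted). Filled points have an adjusted p under 0.05, which are Ccnd2 at -0.81 and Ccnd1 at -0.34, and Cdk1 has the widest interval of the cyclin group, from 0.0073 to 2.36.

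Ccnd2 (ENSMUSG00000000184) encodes a D-type cyclin that pairs with Cdk4 or Cdk6 and lies on chromosome 6 of mm10 from 127125162 to 127152193, minus strand. It was at 34.7, 45.4 and 48.0 CPM in Ctrl libraries 2, 4 and 6, against 20.5, 23.4 and 29.03 CPM in Sox2 cKO libraries 1, 3 and 5. Every Sox2 cKO library lay below every Ctrl library. The mean was 42.7 ± 7.06 CPM (SD, n = 3) in Ctrl and 24.3 ± 4.36 CPM (SD, n = 3) in Sox2 cKO, a log2 fold change of -0.81 (SE 0.15, adjusted p = 0.0127 from edgeR) or a level 43.0% lower. It did not pass without Ctrl library 4 (adjusted p = 0.0650) or Sox2 cKO library 1 (adjusted p = 0.0656), with log2 fold changes of -0.76 and -0.70 there.

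Ccnd1 (ENSMUSG00000070348), the D-type cyclin of highest level here, lies on chromosome 7 from 144929931 to 144939925, minus strand. Its Ctrl libraries 2, 4 and 6 were at 49.4, 54.8 and 44.8 CPM, and its Sox2 cKO libraries 1, 3 and 5 at 40.02, 38.5 and 39.4 CPM. The groups did not overlap, and the Sox2 cKO libraries lay close together. The mean fell from 49.6 ± 4.98 CPM (SD, n = 3) to 39.3 ± 0.761 CPM (SD, n = 3), a log2 fold change of -0.34 (SE 0.09, adjusted p = 0.0261 from edgeR) or a level 20.8% lower. Ccnd1 passed in 2 of the 6 edgeR fits that left out a library, and lost the call without Ctrl library 4 (adjusted p = 0.119), Sox2 cKO library 1 (0.0806), library 3 (0.0887) or library 5 (0.0668). It also did not pass on log2 FPKM with limma, where the difference was -0.21 with a pseudocount of 1 and the adjusted p = 0.110.

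Ccnd3, the third D-type cyclin, had overlapping groups. It was at 24.7, 28.2 and 21.4 CPM in Ctrl libraries 2, 4 and 6, against 26.4, 24.5 and 25.6 CPM in Sox2 cKO libraries 1, 3 and 5. Its log2 fold change was 0.042, with a 95% interval from -0.20 to 0.29 (SE 0.11, edgeR, adjusted p = 0.803). Per length, the D-type cyclins together summed to 26.3 ± 2.26 FPKM (SD, n = 3) in Ctrl and 22.1 ± 0.595 FPKM (SD, n = 3) in Sox2 cKO. Ccnd2 made up 23.7%, 26.6% and 32.4% of this sum in the Ctrl libraries and 17.0%, 19.8% and 22.9% in the Sox2 cKO libraries. Ccnd3 made up 24.9%, 24.4% and 21.4%, and 32.4%, 30.6% and 29.8%. The share of Ccnd1 overlapped between groups, at 48.9 ± 2.61% (SD, n = 3) and 49.2 ± 1.68% (SD, n = 3). The shares of Ccnd2 and Ccnd3 did not overlap between groups and moved in opposite directions, as parts of 1 sum.

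**Figure D3:**
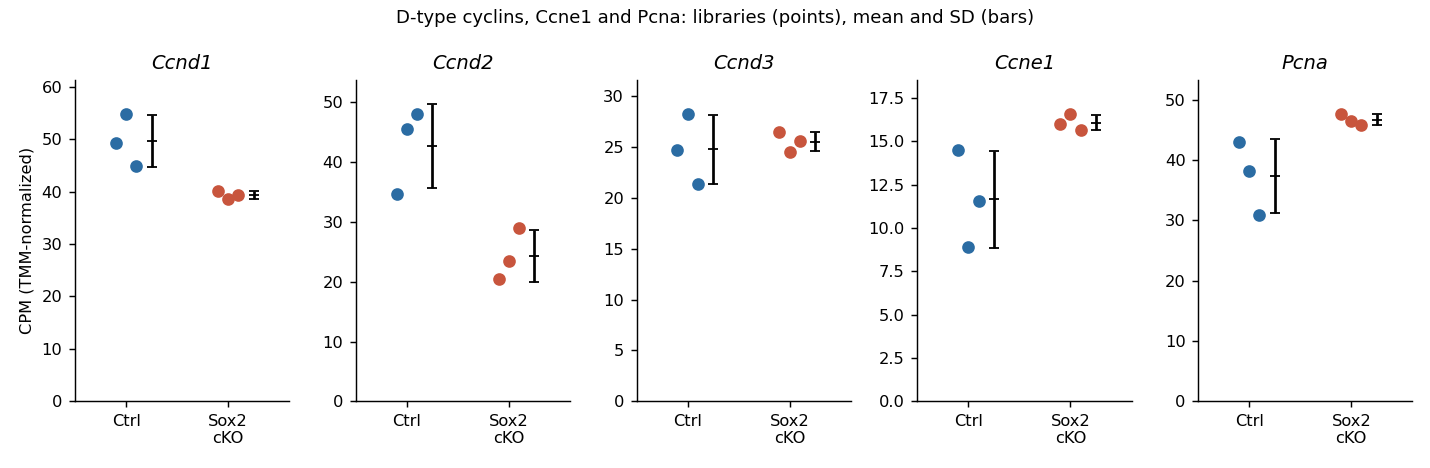
TMM-normalized CPM of Ccnd1, Ccnd2, Ccnd3, Ccne1 and Pcna in the 3 Ctrl and 3 Sox2 cKO libraries (points), with the mean and SD of each group beside them. Ccnd1 and Ccnd2 lie lower in every Sox2 cKO library, Ccnd3 overlaps, and Ccne1 and Pcna lie higher in every Sox2 cKO library without passing the edgeR test (adjusted p = 0.0539 and 0.0623).

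Many but not all markers of astrocytes and of oligodendrocyte precursors were lower in Sox2 cKO, as were Ccnd2 and Ccnd1. Of 10 astrocyte markers 6 fell in edgeR, against 12.4% of all genes lower. Among them was Gfap, the main intermediate filament of astrocytes and the most abundant of the list per length. It fell from 2838 to 1311 CPM on average (log2 fold change -1.11, SE 0.15, edgeR, adjusted p = 0.010). Gja1 and Aldoc did not pass edgeR (adjusted p = 0.146 and 0.13). Gjb6 and Fgfr3 lay above 0, at log2 fold changes of 0.026 and 0.098. The summed level of the 10 was 8113 to 10370 CPM in Ctrl and 5952 to 6170 CPM in Sox2 cKO. Of 9 precursor markers 8 were tested and 6 fell, against the same 12.4%, Lhfpl3 having no identifier match. Their summed level was 286 to 353 CPM in Ctrl and 194 to 247 CPM in Sox2 cKO, and Cacng4, the most abundant per length, was at 51.4 and 44.5 CPM (adjusted p = 0.178). The 6 calls of each list were 3 under the length correction. Without Ctrl library 4 edgeR called 1 astrocyte marker and 0 precursor markers (6 at an unadjusted p under 0.05, 1 in DESeq2), and without Sox2 cKO library 1 it called 0 of either (6 of each at an unadjusted p under 0.05, 5 of each in DESeq2). No marker of either list was at 0 in all libraries. In CPM the 6 libraries had the same order by Ccnd2, by the summed astrocyte markers and by the summed precursor markers. It ran from Sox2 cKO 1, 3 and 5 up to Ctrl 2, 4 and 6. Sox2 cKO libraries 1 and 3 were nearly level in the astrocyte sum, at 5952 and 5957 CPM. By summed FPKM the astrocyte markers instead ran from Sox2 cKO 3 and 5 to 1, at 1531, 1560 and 1676. The precursor markers kept their order by summed FPKM. In CPM Ccnd1 had another order than Ccnd2, from Sox2 cKO 3, 5 and 1 up to Ctrl 6, 2 and 4. The summed level of 7 ependymal markers was also lower in every Sox2 cKO library, at 45.5 to 48.8 CPM against 50.7 to 60.8 CPM. Its order ran from Sox2 cKO 3, 1 and 5 up to Ctrl 2, 4 and 6. The part of these cells in the fall of the D-type cyclins was not tested.

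The D-type cyclin genes share exon positions with genes of the opposite strand, and the strand setting of the counting is not given in the sources used here. Ccnd1 overlaps LTO1, which had 274 to 363 counts in Ctrl and 397 to 508 in Sox2 cKO, Ccnd2 overlaps 9330179D12Rik, with 18 to 40 and 46 to 77 counts, and Ccnd3 overlaps Bysl, with 442 to 476 and 515 to 599 counts. In all, 14 of the 40 genes have an exon that overlaps another gene, 13 of them on the opposite strand. If strand was not used, reads from the shared positions cannot be assigned to either gene, and how such reads were counted is not given.

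The later cyclins and Cdk1 did not pass the edgeR test. Ccne1, which activates Cdk2 at the start of S phase, came nearest. It was at 14.5, 8.93 and 11.5 CPM in Ctrl libraries 2, 4 and 6, against 16.0, 16.6 and 15.7 CPM in Sox2 cKO libraries 1, 3 and 5. Every Sox2 cKO library lay above every Ctrl library, with Ctrl library 4 lowest. The log2 fold change was 0.47 (SE 0.16, adjusted p = 0.0539 from edgeR and 0.0302 from DESeq2). It passed in edgeR among genes with at least 10 counts in every library (adjusted p = 0.0460), and was at 0.31 (adjusted p = 0.157) in the fit corrected for gene length. Ccne2, its paralog, had overlapping groups at 4.69 to 5.02 CPM in Ctrl and 3.82 to 4.81 CPM in Sox2 cKO (log2 fold change -0.15, edgeR, adjusted p = 0.494).

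Cdk1, the kinase of mitotic entry, had the largest log2 fold change of the 37 genes, 1.18, on few reads. It had 12, 10 and 4 counts in Ctrl libraries 2, 4 and 6, against 34, 23 and 11 in Sox2 cKO libraries 1, 3 and 5. Sox2 cKO library 5 lay within the Ctrl range, and the test did not pass (SE 0.53, edgeR, adjusted p = 0.124). Its partners of G2 phase and mitosis were as sparse. Ccna2 had 18 to 34 counts in Ctrl and 25 to 41 in Sox2 cKO, Ccnb2 had 6 to 10 and 9 to 16, and the untested Ccnb1 had 5 to 9 and 7 to 15. The groups overlapped for all 3 in CPM.

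None of the 11 helicase and licensing genes passed edgeR or DESeq2, against 24.6% and 27.3% of all genes tested. At an unadjusted p under 0.05 there were 0 in either test, against 39.6% of all genes in edgeR. Their log2 fold changes ran from -0.22 (Mcm2) to 0.53 (Gins2), with a median of 0.064, and 6 of the 11 had a 95% interval within 0.5 to either side. Mcm4, a subunit of the helicase ring, was at 12.95, 12.30 and 12.54 CPM in Ctrl libraries 2, 4 and 6, against 13.38, 12.99 and 13.44 CPM in Sox2 cKO libraries 1, 3 and 5. Mcm7, another subunit, was at 12.82, 11.96 and 10.95 CPM, against 12.81, 12.95 and 12.98 CPM. The groups did not overlap for Mcm4 and overlapped for Mcm7, at log2 fold changes of 0.075 (95% interval -0.15 to 0.30) and 0.12 (-0.13 to 0.36). Mcm2 was the only ring gene with all Sox2 cKO libraries lower, at 7.37 to 7.64 CPM against 8.70 to 8.85 CPM in Ctrl (log2 fold change -0.22, SE 0.12, edgeR, adjusted p = 0.195). Mcm3, Mcm5 and Mcm6 had log2 fold changes of 0.0073, -0.090 and -0.041. The loading factors Cdc6 and Cdt1 were at 0.034 and 0.064, but Cdc6, with 9 to 23 counts per library, had an interval from -1.02 to 1.09. Cdc45, Gins1 and Gins2, which complete the helicase, had values of 0.36, 0.35 and 0.53 and adjusted p between 0.265 and 0.487.

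Of the 7 S-phase enzyme and chromatin genes, 0 passed edgeR and 1, Pcna, passed DESeq2, against 24.6% and 27.3% of all genes tested. Pcna was at 43.0, 38.1 and 30.8 CPM in Ctrl libraries 2, 4 and 6, against 47.6, 46.6 and 45.8 CPM in Sox2 cKO libraries 1, 3 and 5. The groups did not overlap, and Ctrl library 6 lay apart from the rest. The log2 fold change was 0.32 (SE 0.11, adjusted p = 0.0623 from edgeR and 0.0479 from DESeq2), and it was 0.080 (adjusted p = 0.585) in a fit corrected for gene length. Rrm1, the large subunit of ribonucleotide reductase, was at 25.6 to 28.3 CPM in Ctrl and 23.2 to 25.5 CPM in Sox2 cKO. Its small subunit Rrm2 was at 1.64 to 2.08 and 1.62 to 2.23 CPM. The log2 fold changes of the 2 subunits were -0.14 and 0.039. The thymidine genes Tyms and Tk1, which make and salvage thymidylate, were at -0.22 and -0.25, and the chromatin genes Hells and Uhrf1, which help to maintain DNA methylation, at 0.046 and 0.44, all with adjusted p of 0.314 or more.

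The 13 mitotic genes did not move together. Of the 11 tested, 6 had log2 fold changes below 0 and 5 above. None passed edgeR or DESeq2, against 24.6% and 27.3% of all genes tested. At an unadjusted p under 0.05 in edgeR there were 3, against 39.6% of all genes. Those 3 were Top2a, Cenpe and Mki67, all lower. Mki67, the antigen Ki-67 of the surface of mitotic chromosomes, was at 2.02, 3.45 and 4.44 CPM in Ctrl libraries 2, 4 and 6, against 2.11, 2.49 and 1.47 CPM in Sox2 cKO libraries 1, 3 and 5. Ctrl library 2 lay within the Sox2 cKO range, and the log2 fold change of -0.70 (SE 0.30, edgeR, adjusted p = 0.116) passed in the fit without that library (-0.96, adjusted p = 0.0197). Top2a, the topoisomerase that untangles sister chromatids, was at 1.48, 2.37 and 2.27 CPM and at 1.23, 1.57 and 0.793 CPM, again with Ctrl library 2 inside the other group. Its log2 fold change was -0.76 (SE 0.31, edgeR, adjusted p = 0.0947), and it too passed without Ctrl library 2 (-0.95, adjusted p = 0.0422). The kinetochore motor Cenpe was at 1.75 to 2.22 CPM in Ctrl and 0.755 to 1.5 CPM in Sox2 cKO without overlap (-0.72, SE 0.29, edgeR, adjusted p = 0.0932), and its kinetochore neighbour Cenpf at 0.872 to 1.64 and 0.566 to 1.09 CPM (-0.47, adjusted p = 0.355).

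The checkpoint kinase Bub1b, the survivin gene Birc5 and the kinases Plk1 and Aurka had values above 0. Bub1b was at 4.84, 2.53 and 2.75 CPM in Ctrl libraries 2, 4 and 6, against 7.68, 5.42 and 3.25 CPM in Sox2 cKO libraries 1, 3 and 5. Library 5 lay inside the Ctrl range, and the log2 fold change was 0.68 (SE 0.33, edgeR, adjusted p = 0.147), with a pass without Ctrl library 2 (1.04, adjusted p = 0.0376). Birc5 had 17 to 23 counts in Ctrl and 22 to 55 in Sox2 cKO, and its CPM did not overlap, at 0.820 to 0.955 and 0.966 to 1.88 (log2 fold change 0.69, SE 0.31, edgeR, adjusted p = 0.129). Plk1 and Aurka had log2 fold changes of 0.55 and 0.42, with adjusted p of 0.249 and 0.211. Nusap1 and Prc1, which bundle spindle microtubules, were at -0.29 and -0.28 without overlap of the groups, and Ube2c, an enzyme of the anaphase-promoting complex, at 0.15 with overlap. The untested Aurkb had 3, 2 and 2 counts in Ctrl and 5, 5 and 10 in Sox2 cKO, and the untested Bub1 had 7, 12 and 3, and 7, 6 and 1. Neither count is more than a handful of reads.

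The values of these genes followed gene length, as they did over all genes. Lengths behind the FPKM were recovered from the 2 deposited tables. Across genes, which are not independent replicates, Spearman's rho of log2 fold change with length was -0.597 over the 37 genes and -0.481 over all 16137 tested, from the same 6 libraries. Of the 6 genes longer than 5000 bases, which are Ccnd2, Top2a, Cenpe, Mki67, Cenpf and Hells, 5 lay below 0, with a median of -0.71, beside a median of -0.26 for the 3020 tested genes of that length. Of the 9 shorter than 2200 bases, Pcna and Ccne1 among them, 0 lay below 0, with a median of 0.35 beside 0.25 for 4985 genes. A fit corrected for length moved the medians of these 6 and 9 genes to -0.37 and 0.080, beside -0.0022 and 0.0020 for all tested genes of those lengths. Spearman's rho over the 37 genes was -0.339 in that fit. Under it Ccnd2 (-0.62, adjusted p = 0.0204) and Ccnd1 (-0.30, adjusted p = 0.0418) passed, and Mki67, Top2a and Cenpe were at -0.31, -0.60 and -0.42 with adjusted p of 0.469, 0.197 and 0.354. The correction left 2109 calls over all genes, or 13.1%.

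**Figure D4:**
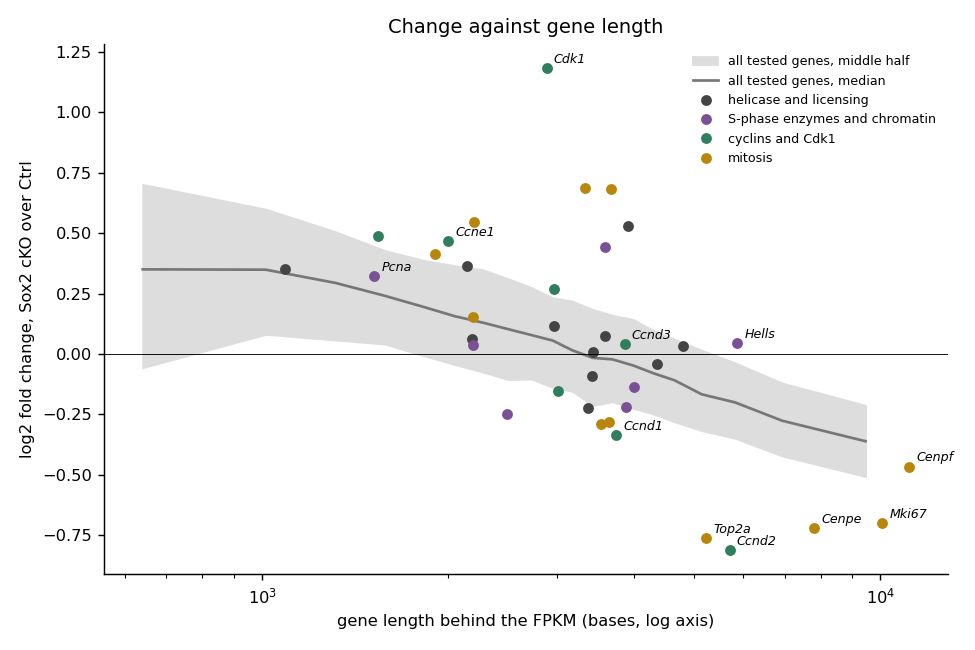
Log2 fold change, Sox2 cKO over Ctrl, of the 37 genes against gene length in bases (log axis), over the median (line) and the middle 50% (band) of all tested genes in length bins. The long genes Cenpe, Ccnd2 and Top2a lie below the band, Pcna lies within it and Ccne1 above it.

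The other genes of replication and the cell cycle that passed edgeR were all higher in Sox2 cKO. Of 108 genes on lists of the replication origin and fork, of the kinases, E2F, RB and DREAM, of brakes and of mitosis, 102 were tested and 16 rose, or 15.7%, against 12.2% of all genes higher. In edgeR 0 fell, against 12.4% of all genes lower, with 7 lower at an unadjusted p under 0.05, and DESeq2 gave 16 higher and 0 lower. Their median log2 fold change was 0.11, beside 0.018 for all genes. On the length-corrected scale 8 rose, against 6.08% of all genes higher. Without Ctrl library 4 or Sox2 cKO library 1, 0 passed in edgeR (3 lower and 19 higher, and 2 lower and 21 higher, at an unadjusted p under 0.05), and 5 in DESeq2 in each case. Without Ctrl library 2, 28 passed (27 higher and 1 lower), without Ctrl library 6, 3, and without Sox2 cKO library 3, 2.

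Of 34 genes of the origin and replisome, 9 rose, or 26.5% against 12.2% of all genes higher, and 5 under the length correction, against 6.08%. The largest was Rpa3, the small subunit of the factor that coats single-stranded DNA, at 5.33, 2.99 and 2.32 CPM in Ctrl libraries 2, 4 and 6, against 7.37, 7.57 and 6.76 CPM in Sox2 cKO libraries 1, 3 and 5. The groups did not overlap, and the log2 fold change was 1.02 (SE 0.26, edgeR, adjusted p = 0.0216). The kinase Cdc7, which fires origins, rose by 0.73 (SE 0.20, adjusted p = 0.0270), the origin subunit Orc6 by 0.69 (SE 0.15, adjusted p = 0.0147) and the clamp loader Rfc3 by 0.66 (SE 0.18, adjusted p = 0.0249). Gmnn, the geminin that holds Cdt1 back from loading origins again, rose by 0.64 (SE 0.19, adjusted p = 0.0350). Under the length correction Cdc7, Orc6 and Rfc3 passed, and Rpa3 (0.65, adjusted p = 0.0871) and Gmnn (0.33, adjusted p = 0.214) did not.

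Of 24 tested kinase, E2F, RB and DREAM genes 4 rose, or 16.7%, near the 12.2% of all genes higher. Cdk4, the kinase of the D-type cyclins, was at 26.3, 23.6 and 23.6 CPM in Ctrl libraries 2, 4 and 6, against 34.5, 33.0 and 33.9 CPM in Sox2 cKO libraries 1, 3 and 5. All Sox2 cKO libraries lay above all Ctrl libraries, the opposite direction to Ccnd1 and Ccnd2, at a log2 fold change of 0.46 (SE 0.09, edgeR, adjusted p = 0.0127). The phosphatase Cdc25b, which activates Cdk1, rose by 0.74 (SE 0.19, adjusted p = 0.0224), Lin37 of the DREAM complex by 0.57 (SE 0.14, adjusted p = 0.0190) and E2f4, an E2F that mainly represses, by 0.30 (SE 0.10, adjusted p = 0.0467). E2f4 did not pass with DESeq2 (adjusted p = 0.0650). Under the length correction Cdk4 and Cdc25b passed, and Lin37 and E2f4 did not (adjusted p = 0.116 and 0.297).

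Of 13 tested brakes 2 rose, or 15.4%, near the 12.2% of all genes higher. They were Trp53 by 0.42 (SE 0.11, adjusted p = 0.0251), which encodes p53, and Cdkn2d by 0.41 (SE 0.11, adjusted p = 0.0237), which encodes an inhibitor of Cdk4 and Cdk6. Cdkn2d did not pass under the length correction (adjusted p = 0.302). Of 31 tested further mitotic genes 1 rose, the Cdk subunit Cks1b at 0.81 (SE 0.26, edgeR, adjusted p = 0.0438), which did not pass with DESeq2 (adjusted p = 0.0536) or the length correction (adjusted p = 0.222). That is 3.23% of them, with a median log2 fold change of 0.032.

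**Figure D5:**
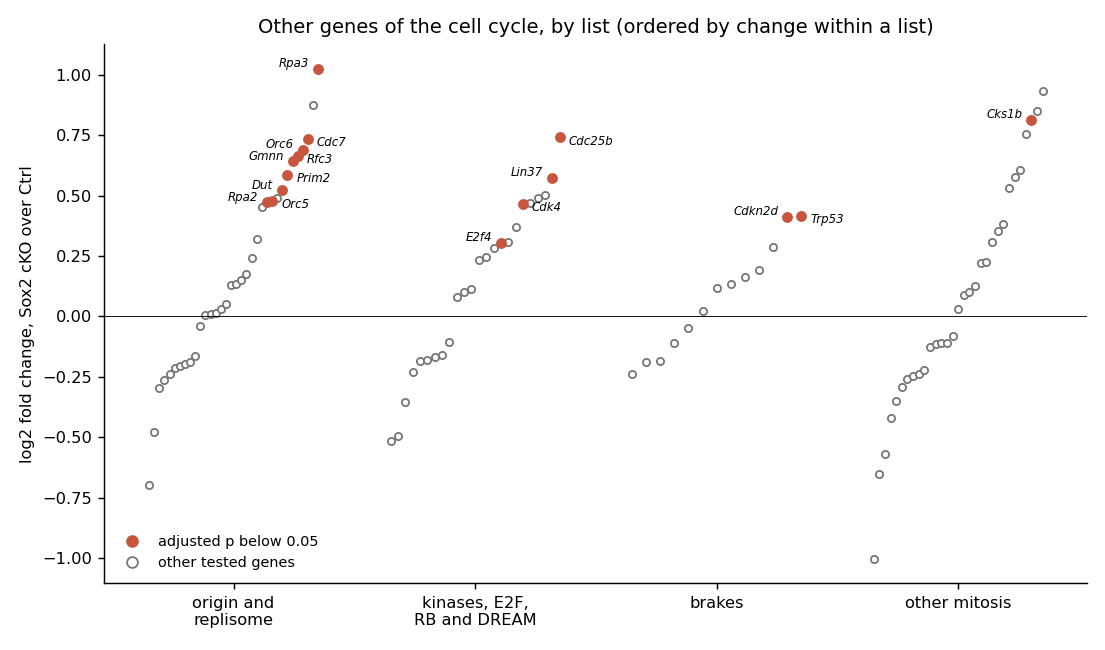
Log2 fold change, Sox2 cKO over Ctrl, of the 102 tested genes of 4 cell cycle lists, each list in order of change. The 16 filled points have an adjusted p under 0.05 and all lie above 0, 9 of them among the origin and replisome genes.

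Markers of other cells that could carry cell cycle RNA were set beside these values. Over all genes tested, edgeR called 12.4% lower and 12.2% higher, and DESeq2 called 27.3% in either direction. At an unadjusted p under 0.05 in edgeR the share was 39.6%. Of 9 markers of neutrophils and their precursors, 7 were tested and 6 rose, with a summed level of 12.4 to 19.4 CPM in Ctrl and of 70.4, 72.9 and 23.1 CPM in Sox2 cKO libraries 1, 3 and 5. Their most abundant genes were S100a8, at 4.07 and 15.3 CPM on average, and S100a9, at 3.79 and 19.6 CPM, while the precursor genes Elane and Mpo were untested at 0.338 and 0.364, and 0.376 and 0.552 CPM. These calls were 4 under the length correction, 1 without Ctrl library 6 or Sox2 cKO library 3 in edgeR, and 0 without Ctrl library 4 (7 higher at an unadjusted p under 0.05, 3 in DESeq2) or Sox2 cKO library 1 (6 and 2). Of 8 endothelial markers 2 rose (0 in edgeR without Ctrl library 4 or Sox2 cKO library 1, with 3 and 2 higher at an unadjusted p under 0.05 and 2 each in DESeq2), with a sum of 265 to 281 CPM in Ctrl and 292 to 396 CPM in Sox2 cKO. Meningeal fibroblast markers, with 0 of 7 past edgeR or DESeq2 and 0 at an unadjusted p under 0.05, summed to 212 CPM in Ctrl library 6 and to 470 to 616 CPM in the other 5. Microglial markers had 0 of 8 past edgeR, with 3 at an unadjusted p under 0.05 and 3 past DESeq2. Their sum was 242 to 291 CPM in Ctrl and 203 to 261 CPM in Sox2 cKO. Of 7 ependymal markers 1, Foxj1, fell, a call that 5 of the 6 edgeR fits without a library lost. Of 6 tested erythroid, 6 Schwann cell and 1 tested lymphocyte markers 0 passed edgeR or DESeq2, with 0, 1 and 0 at an unadjusted p under 0.05. No marker of these lists was at 0 in all libraries, and the part of these cells in any value above was not tested.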

How the data were processed

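Whole spinal cord RNA of 3 Sox2 cKO and 3 Ctrl mice was sequenced by single-end, directional poly(A) RNA-seq. The authors aligned reads to mm10 with STAR 2.5 and counted them per gene with HTSeq 0.6.1 (strand setting not given in the sources used here). The submitters' processing notes also list CASAVA and DESeq 2.1.6.3. The deposited counts are raw, and the deposited FPKM were made by the authors from the same counts, each gene's length and each library's total. Another table lists the authors' fold changes and p-values, which were not used.

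The numbered columns were put in groups by mouse number, as printed for a protein blot in the study, and the group means of normalized counts were checked against those the authors list by group name. All 1999 genes matched within a relative tolerance of 0.0001, and 0 with the groups exchanged. Which replicate a column is remains unknown, so libraries are named by number. Over the 15 pairs of libraries the chi-square per degree of freedom was 6.74 or more, so none was a copy of another.

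The test of the counts was edgeR 4.0.16 in R 4.3.3 (filterByExpr, TMM, quasi-likelihood test, no covariate, Benjamini-Hochberg at 0.05 over all genes tested). The biological coefficient of variation was 0.119. Standard errors are the fold change divided by the root of the test statistic. Alternatives were DESeq2 1.42.0, upper quartile and RLE scaling, no filter, at least 10 counts in every library, limma 3.58.1 on log2(FPKM + 1) and log2(FPKM + 0.1) for genes with a mean FPKM of 0.5 or more, a lowess correction for gene length (span 0.3), and leaving out each library. The fits were tested on simulated data. At 3 mice per group, exact permutation of 1 gene's values gives p of 0.1 at the lowest.

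GENCODE M21 on GRCm38, the same build as mm10, gave positions for 34490 of 35275 identifiers. Named are all 40 genes, Sox2, up to 5 genes per direction and list of other cycle genes, by size among those past the threshold, and the most abundant markers. Any further gene was picked with its values in view. The 40 genes, the lists and the tests were chosen with earlier results of these data known. Protein sequences of the D-type cyclins were planned and not used here. Intervals are for the difference between the groups, and the spread between these mice enters them.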

Additional observations from a re-analysis of the deposited data

How the results depend on the processing

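No paired analysis was possible because the columns carry no replicate numbers. Over all genes, the length correction gave 2109 calls against 3970, and leaving out 1 library gave between 8 calls (Sox2 cKO library 1 left out) and 6119 (Ctrl library 2 left out) in edgeR. The same in DESeq2, added after the data were seen, gave 2014, 2330 and 2398 calls without Ctrl library 4, Ctrl library 6 and Sox2 cKO library 1, and 2861 to 5786 without the others. Of the replication and mitosis genes 2 were called, against 4 with DESeq2, 4 with upper quartile scaling and 4 without a filter, where Ccne1 and Pcna passed too, and 0 to 7 when 1 library was left out. DESeq2 called Ccnd2 in each of its 6 fits without a library, with 1 to 6 genes called in all. The 7 in edgeR and the 6 in DESeq2 were without Ctrl library 2, where edgeR called 6119 over all genes. Of the other cycle genes 16 were called, against 8 with the length correction and 0 to 28 without 1 library. The median log2 fold change of the 37 genes was 0.042, against 0.11 with limma on log2(FPKM + 0.1), where the median of all genes was 0.11, and -0.041 (without Ctrl library 4) to 0.082 (without Sox2 cKO library 5) in edgeR when 1 library was left out.

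Ccnd2 passed in all 8 settings that kept every library, and Ccnd1 in all but both FPKM settings. The sign changed for 10 genes, none of these values with an adjusted p under 0.522. These values were -0.0031 with DESeq2 and -0.0033 with RLE scaling for Mcm3, and 0.0070 and 0.011 on log2 FPKM for Mcm5. For Mcm6 they were 0.0064 with upper quartile scaling, 0.031 and 0.042 on log2 FPKM and 0.048 with the length correction, which also gave -0.073 for Cdt1 and -0.096 for Rrm2. Without 1 library the ranges were -0.057 to 0.11 for Mcm3, -0.22 to 0.082 for Mcm6, -0.49 to 0.38 for Cdc6, -0.050 to 0.20 for Cdt1, -0.060 to 0.16 for Rrm2, -0.40 to 0.049 for Tyms, -0.044 to 0.15 for Hells, -0.051 to 0.15 for Ccnd3 and -0.17 to 0.52 for Ube2c. Of the 11 tested mitotic genes 8 had an interval that reached past 1 on the log2 scale, and both few counts and the spread between libraries enter it. The causes of these shifts were not tested.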
